A study of Homo sapiens with 12 samples.

Results

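Metallothioneins are small cysteine-rich proteins that hold zinc and copper ions. The genes described here are the protein-coding ones named MT2A or MT1 followed by 1 capital letter, chosen by symbol alone. The GENCODE v29 annotation of GRCh38 has 9 such genes, and 6 of them (MT2A, MT1E, MT1X, MT1A, MT1F and MT1M) are among the genes deposited for this study, out of 1424 listed in a table on ATOH8 and 1810 listed in a table on RSL3. All 6 are in the ATOH8 table and 0 are in the RSL3 table, where the metallothionein pseudogene MT1L is listed instead. The cells are DU145, an established human prostate cancer line. RNA from 12 libraries was sequenced, in 4 groups of 3 replicates. The oeATOH8 cells overexpress ATOH8, a transcription factor of the basic helix-loop-helix family, and are set against oeCTRL cells carrying the control for overexpression; neither group has a drug named. Wild-type DU145 cells given RSL3 for 24 h are set against wild-type cells given DMSO. RSL3 inhibits GPX4, the enzyme that reduces lipid peroxides in membranes, and so triggers ferroptosis. The study looked for regulators of ferroptosis. The construct, the promoter driving ATOH8, whether the overexpressing cells are 1 clone or a pool, and the dose of RSL3 are not given in the sources used here.

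Metallothioneins buffer free zinc, sequester copper and cadmium, and their thiols can react with oxidants. When free zinc or cadmium rises, the zinc-finger factor MTF1 binds metal response elements (MREs) in metallothionein promoters and raises transcription, and glucocorticoids induce MT2A through the glucocorticoid receptor. MT2A and the MT1 genes are expressed in many tissues, whereas MT3 is best known from brain and MT4 from stratified epithelium.

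The 9 genes lie on chromosome 16 within 76 kb (chr16:56608199-56684196), each with 3 exons in the transcript used here. In order along the chromosome, MT2A (ENSG00000125148, chr16:56608199-56609497) is followed by MT1E (ENSG00000169715, chr16:56625475-56627112), MT1M (ENSG00000205364, chr16:56632233-56633986), MT1A (ENSG00000205362, chr16:56638666-56640087), MT1B, MT1F (ENSG00000198417, chr16:56657694-56660698), MT1G, MT1H and MT1X (ENSG00000187193, chr16:56682424-56684196). MT1G is on the minus strand and the other 8 are on the plus strand. Each coding sequence is 186 bases long. Since reads are assigned to genes by such sequences, the coding sequences of MT2A and 3 MT1 genes that span the range of fold changes are shown, with capitals at the bases that differ from MT2A, from the ATG to the stop codon, from the GENCODE v29 transcripts.
MT2A: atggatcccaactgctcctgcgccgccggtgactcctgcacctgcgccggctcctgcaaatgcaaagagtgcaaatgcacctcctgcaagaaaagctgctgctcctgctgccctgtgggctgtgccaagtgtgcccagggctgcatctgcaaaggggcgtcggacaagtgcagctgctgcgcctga
MT1E: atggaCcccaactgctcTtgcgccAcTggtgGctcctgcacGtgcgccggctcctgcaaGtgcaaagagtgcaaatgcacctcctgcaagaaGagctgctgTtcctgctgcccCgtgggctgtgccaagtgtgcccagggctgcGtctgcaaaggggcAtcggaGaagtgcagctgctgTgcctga
MT1X: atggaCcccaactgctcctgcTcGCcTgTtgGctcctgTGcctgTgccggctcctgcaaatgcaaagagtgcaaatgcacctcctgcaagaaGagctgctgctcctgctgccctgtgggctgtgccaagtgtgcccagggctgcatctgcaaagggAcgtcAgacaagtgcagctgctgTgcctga
MT1F: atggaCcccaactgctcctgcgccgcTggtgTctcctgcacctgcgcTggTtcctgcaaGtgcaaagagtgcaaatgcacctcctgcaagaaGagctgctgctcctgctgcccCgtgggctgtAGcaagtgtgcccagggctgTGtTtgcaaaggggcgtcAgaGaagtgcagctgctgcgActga

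MT1E, MT1X and MT1A each differ from MT2A at 14 of the 186 coding bases (92.5% identity), MT1F at 16 (91.4%) and MT1M at 19 (89.8%). The differences are scattered, so short stretches are common to several genes. Compared with the other transcripts of 21 metallothionein genes and pseudogenes, runs of 50 bases found exactly in another of them made up 16% of the MT1X transcript, 7.05% of MT1M, 5.76% of MT1A, 5.34% of MT1E, 4.88% of MT2A and 3.59% of MT1F. At 75 bases the shared portion was 7.18% for MT1X, most of it with MT1G, 0.794% for MT1E and 0.132% for MT1M, and 0 for the other 3. At 100 bases no run of these 6 transcripts was shared. The read length and the handling of multiply mapped reads are not given in the sources used here, so how far reads were moved between these genes was not tested.

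Promoters of 4 of the 9 genes could be matched in the RefSeq table used (MT2A, MT1X, MT1H and MT1B, GRCh38.p14), and the 250 bases before the start site are shown for the only 2 of them that are in the ATOH8 table. Capitals mark matches on either strand to the MRE core, searched as TGCACNC or TGCGCNC. The MT2A window is chr16:56608334-56608583 and the MT1X window is chr16:56682220-56682469, both on the plus strand. The RefSeq start of both genes lies inside the longer GENCODE gene span, so the GENCODE transcript begins within or before these windows.
MT2A promoter: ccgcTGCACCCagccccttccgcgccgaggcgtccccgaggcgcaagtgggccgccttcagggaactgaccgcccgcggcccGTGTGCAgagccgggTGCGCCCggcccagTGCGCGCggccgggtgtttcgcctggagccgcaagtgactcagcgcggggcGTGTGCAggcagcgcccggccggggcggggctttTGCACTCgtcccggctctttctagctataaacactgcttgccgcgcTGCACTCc
MT1X promoter: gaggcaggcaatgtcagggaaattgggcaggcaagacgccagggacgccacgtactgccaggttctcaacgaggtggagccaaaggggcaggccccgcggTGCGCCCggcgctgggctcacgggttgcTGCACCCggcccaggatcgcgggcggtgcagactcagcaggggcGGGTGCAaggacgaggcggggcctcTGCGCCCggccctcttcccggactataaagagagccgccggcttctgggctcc

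MT2A had 7 MRE core matches and MT1X had 4, whereas 24.8% of 35116 promoters of this length had at least 1, 0.370% had at least 4 and 0.0313% had at least 7. The unlisted genes were not devoid of such matches: MT1H had 8 and MT1B had 3. ATOH8 belongs to a family of factors that bind E-boxes. The general E-box CANNTG, which reads alike on both strands, matched 2 times in MT2A, 1 time in MT1H and 0 times in MT1X and MT1B, against at least 1 match in 61.8% of all promoters, and no E-box match overlapped an MRE core match. The form CAGCTG was in none of the 4 windows and in 14.0% of all promoters. These are matches of letters within this window only.

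**Figure D1:**
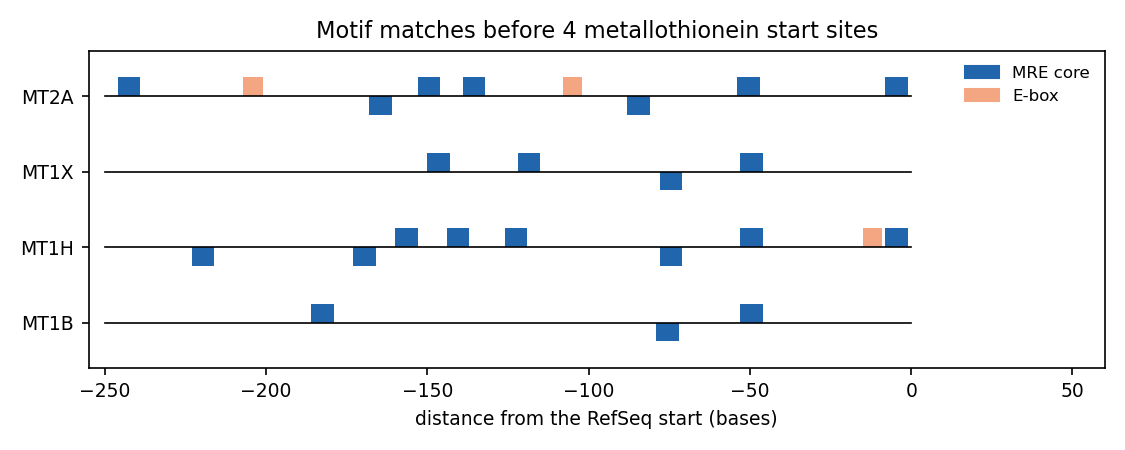
Matches to the MRE core (blue) and to the general E-box (orange) in the 250 bases before the RefSeq start of 4 metallothionein genes, with plus-strand matches above each line and minus-strand matches below it (an E-box reads alike on both strands and is drawn above). MT2A carries 7 MRE core matches, MT1X 4, MT1H 8 and MT1B 3.

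The tables hold only genes that the authors called changed, and neither gives a fold change or p-value. Reads over listed genes came to 2083678 to 2226518 per oeATOH8 library and 1508188 to 1605910 per oeCTRL library, and to 3046193 to 3096832 per RSL3 library and 2523743 to 2891822 per DMSO library. These are sums over listed genes and not library depths, which are unknown. ATOH8 itself had 76508, 72569 and 76043 reads in oeATOH8 libraries and 13, 10 and 4 reads in oeCTRL libraries, as the labels require. Of 6 epithelial markers, CDH1 and KRT8 were listed, with 6149 to 6531 summed reads in oeATOH8 libraries and 16611 to 17667 in oeCTRL libraries, and both were lower in oeATOH8 cells. None of 6 luminal prostate, 6 macrophage or 5 endothelial markers was in the ATOH8 table. Of 10 erythroid markers, the globin genes HBB, HBA1 and HBA2 were listed, with 56662, 3141 and 13206 summed reads in oeATOH8 replicates 1, 2 and 3 and 13, 7 and 4 in oeCTRL replicates, where HBB was at 0. Of 6 fibroblast markers, COL3A1 and COL1A2 were listed, with 127 to 202 summed reads in oeATOH8 libraries and 0 to 10 in oeCTRL libraries. The part of these markers in the metallothionein values was not tested.

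Metallothionein RNA was higher in oeATOH8 cells, and 5 of the 6 listed genes passed the test. MT1X rose 9.49-fold, MT2A 5.24-fold, MT1E 4.65-fold, MT1A 2.67-fold and MT1F 2.01-fold, while MT1M was 2.12-fold higher by means and did not pass. For none of the 6 did the oeATOH8 and oeCTRL libraries overlap. A gene passed at an edgeR quasi-likelihood p, adjusted by Benjamini-Hochberg, under 0.05 with all 75204 annotated genes and assembled loci counted as tests, since only called genes are listed. That count does not undo the selection. For both tables the spread between libraries was estimated from called genes alone, so p-values may be too small. In the same direction 507 of the 1424 listed genes passed, which is 35.6%. By group means 589 listed genes (41.4%) were higher in oeATOH8 cells, and all of these had groups that did not overlap. Since all 6 metallothioneins were higher, the like background for the 5 of 6 is 507 of 589. Passing or not overlapping therefore does not set the metallothioneins apart from other higher listed genes. The median log2 ratio of group means was 1.82 over the 6 genes, -1.10 over all 1424 listed genes and 1.24 over the 589 that were higher. The count of 5 was 3 without oeATOH8 replicate 2, without any 1 of the oeCTRL replicates or with libraries scaled to their totals over listed genes. The authors' calls had already chosen which metallothioneins are listed: 6 of 9, or 66.7%, against 5.77% of the 19951 annotated protein-coding genes. In bulk RNA, more RNA per cell and more cells that express a gene cannot be told apart.

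MT2A, often the most abundant metallothionein of human cells, had 19705, 18079 and 16395 reads in oeATOH8 replicates 1, 2 and 3, against 3706, 3103 and 3330 reads in oeCTRL replicates. The lowest oeATOH8 library had more than 4 times the reads of the highest oeCTRL library. Scaled reads, which are reads divided by 1 factor per library, averaged 17876 ± 1732 in oeATOH8 cells and 3410.2 ± 191 in oeCTRL cells (SD, n = 3 each). The edgeR log2 fold change was 2.39 (SE 0.075, adjusted p = 1.50e-08). By fold, MT2A was 30th of the 589 listed genes that were higher.

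MT1E had 9035, 8010 and 8142 reads in oeATOH8 libraries, against 1783, 1587 and 1926 reads in oeCTRL libraries. It followed MT2A closely, with separate groups and little spread within each. Scaled reads averaged 8303 ± 449 in oeATOH8 cells and 1784 ± 175 in oeCTRL cells (SD, n = 3 each), with an edgeR log2 fold change of 2.22 (SE 0.081, adjusted p = 4.86e-08). MT1E was 39th by fold.

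MT1X, at the far end of the cluster from MT2A, had 1313, 1267 and 1043 reads in oeATOH8 libraries, against 119, 107 and 148 reads in oeCTRL libraries. Its fold was the largest of the 6 and 13th among the 589 higher genes. Scaled reads averaged 1197 ± 160 in oeATOH8 cells and 126 ± 22.7 in oeCTRL cells (SD, n = 3 each), with an edgeR log2 fold change of 3.25 (SE 0.15, adjusted p = 2.47e-07). The calls of MT2A, MT1E and MT1X held when any 1 library was left out. Without oeATOH8 replicate 1, which had the most globin reads, their log2 fold changes were 2.38, 2.22 and 3.24. Replicates 2 and 3 of oeATOH8 still had 3141 and 13206 summed globin reads, so the part of the globin signal was not tested by this.

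The other 3 genes were measured by far fewer reads. MT1A had 137, 129 and 102 reads in oeATOH8 libraries, against 48, 43 and 44 reads in oeCTRL libraries. Scaled reads averaged 121.5 ± 19.6 in oeATOH8 cells and 45.4 ± 1.03 in oeCTRL cells (SD, n = 3 each), with an edgeR log2 fold change of 1.42 (SE 0.25, adjusted p = 0.0135). All oeATOH8 libraries lay above all oeCTRL libraries, and the call was lost without oeATOH8 replicate 2 (adjusted p = 0.0720) or without oeCTRL replicate 1, 2 or 3 (edgeR adjusted p = 0.0951, 0.0763 and 0.103).

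MT1F had 176, 155 and 183 reads in oeATOH8 libraries, against 85, 75 and 90 reads in oeCTRL libraries. The groups were apart by less than in any of the 4 genes above, and the log2 ratio of means, 1.01, sits at the edge of what the table lists, since no listed gene lay nearer to 0 than 1.0. Scaled reads averaged 169 ± 9.37 in oeATOH8 cells and 84.2 ± 7.61 in oeCTRL cells (SD, n = 3 each), with an edgeR log2 fold change of 1.01 (SE 0.21, adjusted p = 0.0338). This call was lost without any 1 of the 6 libraries (edgeR adjusted p from 0.0830 to 0.223).

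MT1M had 93, 80 and 155 reads in oeATOH8 libraries, against 58, 45 and 48 reads in oeCTRL libraries. The third oeATOH8 library stood above the other two, and the log2 fold change was 0.79 without it. Scaled reads averaged 108 ± 37.2 in oeATOH8 cells and 50.7 ± 4.97 in oeCTRL cells (SD, n = 3 each), with an edgeR log2 fold change of 1.08 (SE 0.30) and an adjusted p of 0.234, or 0.00443 over the listed genes alone. Over the listed genes alone all 1424 passed, so that value does not set MT1M apart. MT1B, MT1G and MT1H, the other MT1 genes of the rule, and the neighbouring MT3 and MT4 are not in either table and were not analysed here.

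**Figure D2:**
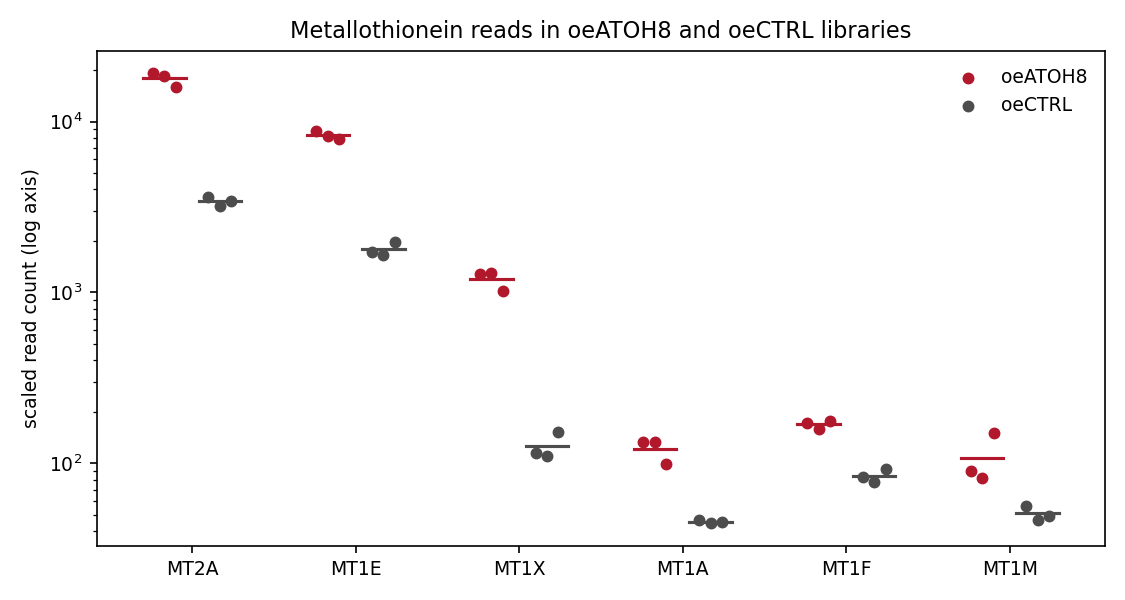
Scaled read counts of the 6 listed metallothioneins on a log axis, 1 point per library (replicates 1, 2 and 3 from left to right) and a bar at the mean, for oeATOH8 (red) and oeCTRL (grey). In each gene the 3 oeATOH8 points lie above the 3 oeCTRL points, with mean ratios from 2.01-fold for MT1F to 9.49-fold for MT1X.

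**Figure D3:**
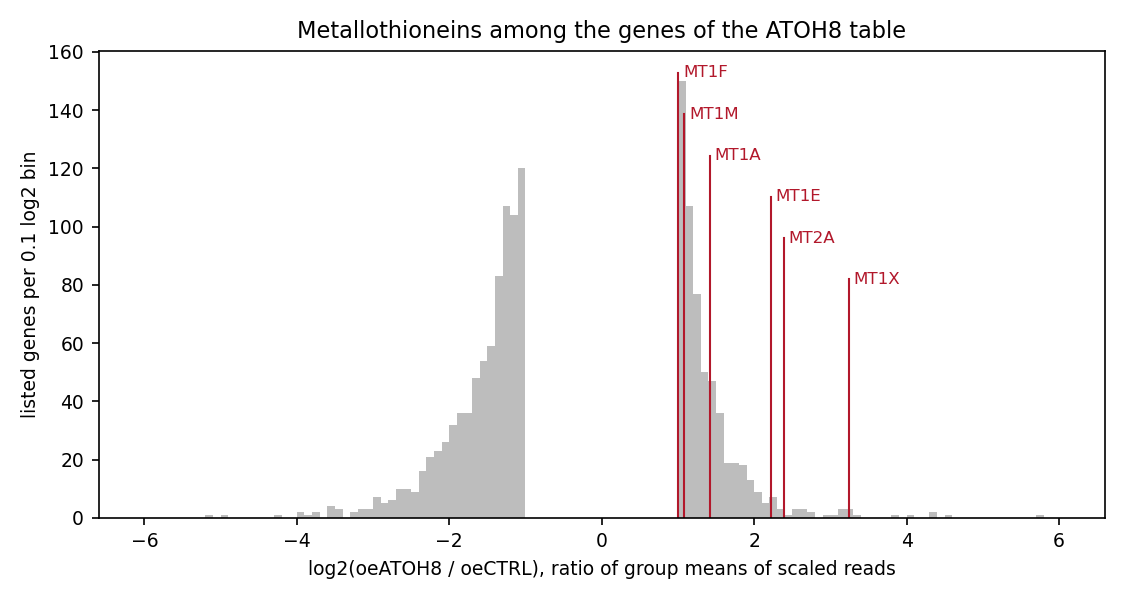
Number of listed genes (grey) by log2 ratio of oeATOH8 to oeCTRL group means in bins of 0.1, for the 1419 listed genes within 6 log2 units of 0, with the 6 metallothioneins as red lines. MT1F and MT1M sit beside the empty zone around 0, and MT1X lies far out at 3.25.

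The order of the folds did not follow the order on the chromosome. MT1M, MT1A and MT1F, with folds of 2.12, 2.67 and 2.01, lie between MT2A and MT1E on one side, with 5.24 and 4.65, and MT1X on the other, with 9.49. MT1E and MT1M are 5.12 kb apart, and MT1M and MT1A 4.68 kb. The ATOH8 table lists 5.77% of all protein-coding genes. Of 31 other protein-coding genes within 1 Mb of the cluster, 1 was listed there, a share near that background. That gene, DOK4, which encodes an adaptor protein for receptor tyrosine kinases, lies 788 kb away and went the other way, with 258 ± 32.5 scaled reads in oeATOH8 cells and 669 ± 44.7 in oeCTRL cells (SD, n = 3 each; 2.60-fold lower, edgeR adjusted p = 5.99e-05).

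Per kilobase of transcript, MT2A was the highest metallothionein in both groups, with 22744 ± 2204 scaled reads per kb in oeATOH8 cells and 4339 ± 243 in oeCTRL cells (SD, n = 3 each). MT1E came next, at 11794 ± 638 per kb in oeATOH8 cells and 2534 ± 249 in oeCTRL cells, and then MT1X, at 2659 ± 356 in oeATOH8 cells and 280 ± 50.4 in oeCTRL cells. The libraries of these 3 genes did not overlap within either group. MT1A had 307 ± 49.4 per kb in oeATOH8 cells and 115 ± 2.60 in oeCTRL cells, and MT1F had 245 ± 13.6 in oeATOH8 cells and 122 ± 11.0 in oeCTRL cells. The libraries of MT1A and MT1F overlapped in both groups on this scale, so their order is not resolved. MT1M was lowest on this scale, at 130 ± 44.9 per kb in oeATOH8 cells and 61.2 ± 6.00 in oeCTRL cells, with no library overlapping those of MT1F. That rank depends on the annotated transcript lengths used, 829 bases for MT1M and 396 for MT1A. Before division by length, MT1M averaged more scaled reads than MT1A in oeCTRL cells (50.7 against 45.4).

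All 6 genes together had 30459, 27720 and 26020 reads in oeATOH8 libraries, against 5799, 4960 and 5586 reads in oeCTRL libraries. That was 1.37%, 1.33% and 1.18% of the reads over listed genes in oeATOH8 libraries and 0.361%, 0.329% and 0.365% in oeCTRL libraries. This sum is the measure that reads moved between listed metallothioneins leave as it is. Scaled, it averaged 27774 ± 2267 in oeATOH8 cells and 5501 ± 323 in oeCTRL cells (SD, n = 3 each), a 5.05-fold difference or 2.34 on the log2 scale. The size depends on the scale between the groups, with a log2 ratio of 3.24 under relative log expression and 1.88 under totals over listed genes, which move every gene's log2 ratio by 0.90 and -0.45. Without MT2A the log2 ratio of the sums was 2.24.

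MT2A and MT1E supplied most metallothionein reads in both groups. MT2A made up 63.0% to 65.2% of them in oeATOH8 libraries and 59.6% to 63.9% in oeCTRL libraries, and MT1E 28.9% to 31.3% in oeATOH8 libraries and 30.7% to 34.5% in oeCTRL libraries. The ranges overlapped for both genes. MT1X made up 4.31%, 4.57% and 4.01% in oeATOH8 libraries, against 2.05%, 2.16% and 2.65% in oeCTRL libraries. The Wilson 95% interval of the lowest oeATOH8 library was 3.78% to 4.25%, and that of the highest oeCTRL library was 2.26% to 3.10%; such intervals cover counting error only. The shares of the 3 low genes were smaller in oeATOH8 libraries: 0.559% to 0.703% against 1.47% to 1.61% in oeCTRL libraries for MT1F, 0.392% to 0.465% against 0.788% to 0.867% for MT1A, and 0.289% to 0.596% against 0.859% to 1.00% for MT1M.

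Ratios of reads within a library need no scale factor and were used to ask whether the genes changed by the same factor as MT2A. The log2 ratio of MT1X to MT2A was -3.91, -3.83 and -3.97 in oeATOH8 libraries and -4.96, -4.86 and -4.49 in oeCTRL libraries, a difference of 0.86 or 1.82 times. The groups did not overlap. For MT1F the difference was -1.38, for MT1M -1.35 and for MT1A -0.98 on the log2 scale, again with no overlap, so relative to MT2A these 3 were lower in oeATOH8 libraries. For MT1E the mean log2 ratio was -1.10 ± 0.084 in oeATOH8 libraries and -0.94 ± 0.14 in oeCTRL libraries (SD, n = 3 each), a difference of -0.17, and the groups overlapped. In a two-sided exact permutation test of 3 libraries against 3, the p was 0.10 for MT1X, MT1F, MT1M and MT1A, which is the smallest this design can give, and 0.20 for MT1E. Adjusted over the 5 ratios, p was 0.125 for those 4 and 0.20 for MT1E, so none passed the 0.05 threshold.

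**Figure D4:**
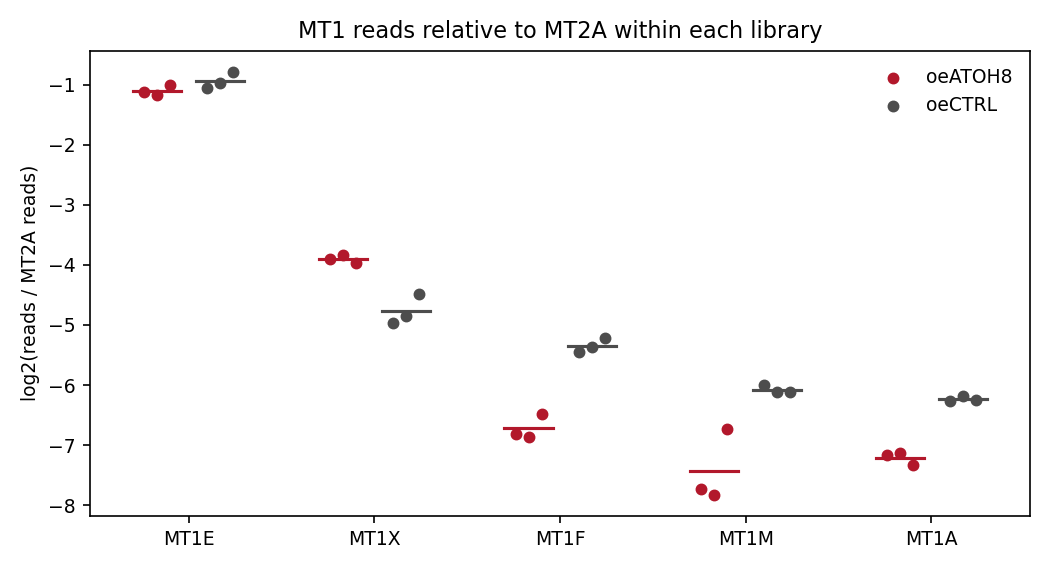
Log2 ratio of each MT1 gene's reads to MT2A reads within each library, 1 point per library (replicates 1, 2 and 3 from left to right) and a bar at the mean, for oeATOH8 (red) and oeCTRL (grey). The oeATOH8 points of MT1X lie above and those of MT1F, MT1M and MT1A below their oeCTRL points, while MT1E overlaps.

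The likeness of 2 profiles was measured by the root mean square difference of log2(scaled reads + 1) over the 6 libraries, each gene centred on its own mean. Of the members, MT1E was nearest to MT2A, at 0.124, and MT1X was at 0.45. Among 1048 other listed genes with a symbol and a mean of at least 50, the 5 nearest to MT2A were G0S2 at 0.10, GADD45B at 0.116, HMGA2 at 0.163, CDC42EP1 at 0.211 and ACP7 at 0.213. G0S2, which encodes an inhibitor of the lipase ATGL, had 6699 ± 329 scaled reads in oeATOH8 cells and 1168 ± 37.9 in oeCTRL cells (SD, n = 3 each). GADD45B, a stress-induced gene, had 4978 ± 219 in oeATOH8 cells and 1023 ± 56.1 in oeCTRL cells. With 2 groups of 3 libraries, this measure mainly picks genes of a similar fold, here from 3.95-fold for CDC42EP1 to 5.73-fold for G0S2.

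Lists of genes around metallothionein biology were also looked up in the ATOH8 table, which lists 5.77% of all protein-coding genes. Of 30 genes for zinc and copper handling, which include the SLC30 and SLC39 zinc transporters, the copper pumps ATP7A and ATP7B and MTF1, 1 was listed, a share near that background, and 0 passed, where 82.0% of all listed genes passed in either direction. That gene was SLC30A3, a zinc transporter known for loading synaptic vesicles, with 30, 59 and 34 reads in oeATOH8 libraries and 98, 97 and 77 in oeCTRL libraries (edgeR adjusted p = 0.258). MTF1 and the zinc exporter SLC30A1, both on the list, were not in the table.

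Of 11 other genes described as MTF1 targets or metal-induced, 4 were listed, and all 4 were lower in oeATOH8 cells and passed. Of the 835 listed genes that were lower, 660 passed, which is 46.3% of all listed genes. Their median log2 change was -1.72, where the 6 metallothioneins had 1.82. HSPA1A, an inducible heat shock protein, had 1671, 1404 and 1452 reads in oeATOH8 libraries and 6524, 6283 and 6015 in oeCTRL libraries, a 4.25-fold lower mean, and its near-identical copy HSPA1B, which can share its reads, was 3.70-fold lower. HMOX1, which degrades haem, had 1547, 1518 and 1513 reads in oeATOH8 libraries and 3684, 3405 and 3285 in oeCTRL libraries, a 2.31-fold lower mean (edgeR adjusted p = 8.55e-07). PGF, a placental growth factor, was 2.95-fold lower (edgeR adjusted p = 0.00970). The 6 listed metallothioneins and these 4 listed genes went opposite ways in the same libraries. HSPA1A and HSPA1B may not count as separate genes here. The rest of the 11 are not listed, so their direction is unknown, and the part of MTF1 was not tested.

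Of 13 glucocorticoid-induced genes, 1 was in the ATOH8 table, again near the 5.77% of all protein-coding genes. ANGPTL4, an inhibitor of lipoprotein lipase, had 2808, 2765 and 2993 reads in oeATOH8 libraries and 1157, 1108 and 1040 in oeCTRL libraries. It rose 2.54-fold (edgeR adjusted p = 5.19e-07), where 507 of the 589 listed genes that were higher passed. FKBP5 and TSC22D3, also on the list, were not in the ATOH8 table.

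With RSL3, none of the 9 metallothionein genes was listed, and their levels there were not analysed. As 7.91% of RefSeq protein-coding genes are listed there, 0 of 9 is near that share. The listed relative is MT1L, a transcribed pseudogene between MT2A and MT1E (chr16:56617461-56618818, plus strand, GRCh38), at normalised read counts of 340, 313 and 310 in RSL3 libraries and 589, 415 and 431 in DMSO libraries. The normalised counts are reads divided by 1 size factor per library, and the recovered reads were 235, 334 and 330 in RSL3 libraries and 536, 544 and 494 in DMSO libraries. No RSL3 library overlapped the DMSO libraries, and DMSO replicate 1 stood above the other two. In the same direction, 37.8% of the 1810 listed genes had groups that did not overlap.

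MT1L averaged 321 ± 16.7 in RSL3 cells and 479 ± 96.1 in DMSO cells (SD, n = 3 each), a 1.49-fold lower mean. The log2 difference on the log2(value + 1) scale was -0.56 (SE 0.21), with a limma adjusted p of 0.0435 over the listed genes. By that measure 1406 of the 1720 tested genes passed, 660 of them as lower (38.4% of all tested), so passing does not set MT1L apart. With all 59792 annotated genes counted as tests the adjusted p was 1, and 2 listed genes (0.116%) passed. With the replicate number as a block, these limma adjusted p were 0.00984 and 0.342. For the former, 1708 of the 1720 tested genes passed, 785 of them as lower (45.6% of all tested). Without DMSO replicate 1 the log2 difference was -0.40 (limma adjusted p over listed genes 0.0594), and that p was also above 0.05 without RSL3 replicate 2 (0.0863) or 3 (0.0899) or DMSO replicate 2 (0.116) or 3 (0.124). Replicates 2 and 3 differed little beyond counting error: chi-square divided by its degrees of freedom was 1.80 for RSL3 and 1.64 for DMSO, against 59.1 to 101 for pairs with replicate 1, and each group may hold fewer than 3 independent samples. The epithelial markers CDH1 and EPCAM had lower sums in the same table, with 69 to 328 summed reads in RSL3 libraries and 638 to 1152 in DMSO libraries, and of 6 macrophage markers CD68 was listed, with 1596 to 2963 reads in RSL3 libraries and 902 to 1462 in DMSO libraries; their part in the MT1L values was not tested. Of the MT1L transcript, 4.42% of 50-base runs were shared, with the pseudogene MT1P3, and none of 75 bases.

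**Figure D5:**
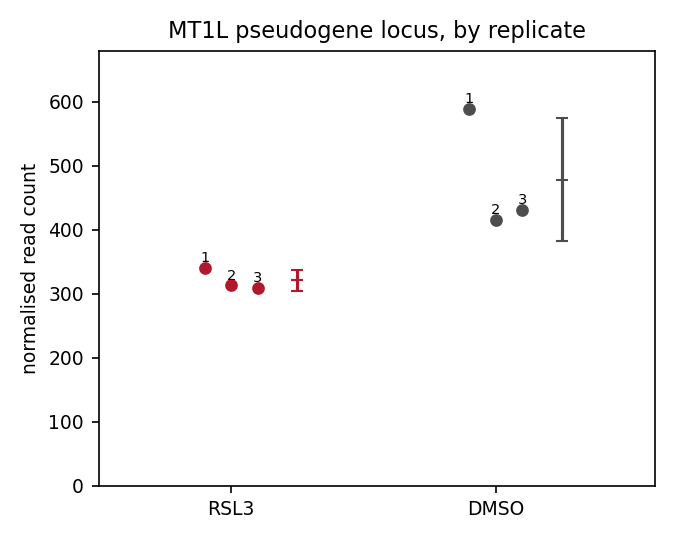
Normalised read count of the MT1L pseudogene in RSL3 (red) and DMSO (grey) libraries, 1 numbered point per replicate, with mean and SD beside them. The RSL3 points lie between 310 and 340, and the DMSO points between 415 and 589.

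The RSL3 table lists 7.91% of RefSeq protein-coding genes. Of the 30 metal-handling genes, 2 were listed, a share near that background. The copper pump ATP7B was at 143 ± 28.0 in RSL3 cells and 243 ± 20.4 in DMSO cells (SD, n = 3 each). Its limma adjusted p was 0.0335 over listed genes, where 1406 of the 1720 tested genes passed, 660 of them as lower (38.4% of all tested). The zinc transporter SLC30A7 was at 34.6 ± 14.9 in RSL3 cells and 71.5 ± 22.3 in DMSO cells (limma adjusted p = 0.0504 over listed genes). With replicate number blocked, the limma adjusted p was 0.0117 for ATP7B and 0.00627 for SLC30A7, where 1708 of the 1720 tested genes passed. Of the 11 other MTF1 or metal-induced genes, HMOX1 was listed, with recovered reads of 7496, 3454 and 3685 in RSL3 libraries and 1988, 972 and 874 in DMSO libraries. Its limma adjusted p was 0.0266 over listed genes, where 746 of the 1406 passing genes were higher (43.4% of all tested). HMOX1 was thus higher with RSL3 and lower with ATOH8 overexpression. Of the 13 glucocorticoid-induced genes, 2 were listed: NFKBIA was 1.65-fold lower in RSL3 cells, and TSC22D3 was 2.59-fold higher. None of these genes passed with all annotated genes counted as tests.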

How the data were processed

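RNA-seq of 12 DU145 libraries was used. Per the submitters' processing notes, fastp, HISAT2, StringTie and DESeq2 were used with GRCh38 (hg38), without versions or roles; strandedness is not given. The ATOH8 table holds raw read counts deposited by the authors per gene, for 1152 Ensembl identifiers, all protein-coding, and 272 assembled loci; its NC and OE columns were read as oeCTRL and oeATOH8. The RSL3 table holds a normalised signal deposited by the authors. Its rows were named here from RefSeq genes with the same span, or else with an overlap of at least 0.5 of the joint span. Strand was checked only for genes whose symbol is in GENCODE. In each library 100% of values were whole multiples of 1 step within 0.001, so whole reads were recovered.

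ATOH8 counts were scaled within groups by the median ratio and between groups by centring on 0 the gap without listed genes, then tested in edgeR 4.0.16 (quasi-likelihood, no block). That scale assumes symmetric fold limits of the authors. The SE given with an edgeR log2 fold change was derived from the test, as its absolute value divided by the square root of the F statistic. RSL3 values were tested in limma 3.58.1 (trended variance) on log2(value + 1) after a filter (minimum count 10, minimum total 15) kept 1720 genes; edgeR had been planned there for counts. With edgeR on the recovered reads, 1549 genes were called. All p-values are two-sided and adjusted by Benjamini-Hochberg (R 4.3.3), and the code was tested on simulated data. DESeq2 1.42.0 was an alternative.

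In the RSL3 table, libraries with the same replicate number deviated together from their group means (correlations of 0.68, 0.61 and 0.61). No label pairs them. Deviations from a group mean are tied to each other, so a shift shared by replicate 1 of both groups can raise all of these correlations. They do not show that replicates 2 and 3 are paired across the groups. The labels do not say whether replicates were separate cultures, so p-values measure only the spread between these samples, which may be technical.

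The members and lists were chosen with earlier results of these data known. Named genes were every listed metallothionein and metallothionein pseudogene, list genes passing with all genes counted (at most 6 per list), the 5 profiles nearest MT2A, ATOH8, and up to 10 listed neighbours within 1 Mb; other list genes are named to account for the lists. Listed neighbours in the RSL3 table besides MT1L were GNAO1 (4.69-fold higher with RSL3), COQ9 (1.65-fold higher) and POLR2C (1.39-fold higher); none passed with all genes counted.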

Additional observations from a re-analysis of the deposited data

How the results depend on the processing

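The deposited tables hold called genes only, without depths, so the scale between oeATOH8 and oeCTRL rests on an assumption. Against the scale used, TMM over listed genes moves every log2 ratio by 0.30, relative log expression by 0.90 and totals over listed genes by -0.45. The number of listed genes called was 1167 (43.4% of them higher), 1072 with TMM (52.6% higher), 733 with relative log expression (80.4% higher) and 1203 with totals (32.7% higher), and 922 to 1103 with 1 library left out. Of the 6 metallothioneins, 5 were called, 6 with TMM, with relative log expression or over listed genes only, 5 with DESeq2, limma or a filter on low counts, 3 with totals, and 3 to 4 with 1 library left out. Over listed genes only, all 1424 listed genes were called. With totals the adjusted p of MT1A was 0.204 and that of MT1F 1; for MT1M it was 0.0395 with TMM and 0.00417 with relative log expression. MT2A, MT1E and MT1X were called under all of these, and all 6 were higher under each. The log2 ratio of summed metallothionein reads, 2.34, was 2.64 with TMM, 3.24 with relative log expression, 1.88 with totals, and 2.25 to 2.42 with 1 library left out.

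The log2 differences of the ratios to MT2A kept their sign with 1 library left out: 0.77 to 1.00 for MT1X, -0.22 to -0.092 for MT1E, -1.49 to -1.30 for MT1F, -1.02 to -0.92 for MT1A and -1.70 to -1.15 for MT1M. In the ATOH8 table, libraries with the same number hardly deviated together (0.041, 0.053 and 0.074); with the replicate block 1182 genes and 4 metallothioneins were called, MT1F having an adjusted p of 0.0576. With RSL3, 1406 genes were called over listed genes, 1708 with the replicate block and 6 to 1437 with 1 library left out (6 without DMSO replicate 2, 8 without DMSO replicate 3, 253 without RSL3 replicate 2, 301 without RSL3 replicate 3). The cause of these differences was not tested.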
